A study of Mus musculus with 2 samples.

Results

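Known single-exon transcripts were described in long-read RNA sequencing of mouse gastrocnemius, the main calf muscle. They are annotated transcripts of annotated genes that consist of 1 exon, taken from the deposited tables after leaving out spike-in RNAs and genes of the mitochondrial genome. Reads fell on 1392 of them, among 19381 known transcripts with reads, and on 5.20% of the 26771 single-exon transcripts that the annotation (GENCODE M21) holds. The tissue came from male mice of strain B6CASTF1/J, a cross of a B6 with a CAST parent, aged 18 to 20 months, and each library was made from 2 µg of RNA. The 2 libraries form a single group, with the labels numbering them as biological replicates, and no treatment was given. The labels name a separate biosample for each, but both carry the same donor identifier and the same pair of animal names, so that the spread between them may be technical in part, and tests on reads compare these libraries, not conditions. Replicate 1 held 1509380 reads and replicate 2 held 1173233. The labelled tissue showed in its markers: 8 skeletal muscle genes, among them Acta1, Ckm and Atp2a1, summed to 346008 reads per 1000000 (CPM) in replicate 1 and 326135 in replicate 2.

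Most mammalian coding genes are interrupted by introns, and their messages are spliced. A minority are intronless, including genes of histones, inducible heat-shock proteins, many transcription factors and many G protein-coupled receptors, and some of these can be induced quickly because no splicing is needed. A second large source of single-exon loci is retroposition, in which a spliced message is copied back into the genome. The copy lacks introns, is called a processed pseudogene when it no longer encodes a protein, or a retrogene when it does, and starts out with the sequence of its parent's message. Reads of a young copy and of its parent can therefore be told apart only where their sequences differ or by where an alignment places a splice.

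The copies with most reads differ from the spliced messages of their parents at few bases, and 72 of the 1392 transcripts were identical to a spliced or mitochondrially encoded coding transcript over their full length. The sequences below, read from the GENCODE M21 transcripts on mm10, show this for 4 copies. They are reference sequences, and whether the alleles of the CAST parent carry the same bases was not tested. Capitals mark the bases that differ, and positions are counted from 1 at the 5′ end of the copy. Gm12671 (chr4:91852641-91852669, minus strand) equals all 1002 bases of the coding part of Gapdh, a glycolytic enzyme, and its first bases are printed. Gm5559 (chr5:95862084-95862112, plus strand) differs by T385A and Gm13394 (chr2:28934250-28934278, minus strand) by A346C, and each is 1 mismatch from Gapdh over its whole length. Gm15459 (chr5:5783428-5783456, minus strand), a copy of Hspa8, the constitutive Hsp70 chaperone, has 5 mismatches in 1941 bases, of which G114A is shown. Each substitution gives the parent's base, the position and the copy's base, and all lie in the parent's coding part.
Gm12671 and Gapdh: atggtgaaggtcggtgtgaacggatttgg
Gm5559: ccgatgcccccatgAttgtgatgggtgtg
Gapdh at that site: ccgatgcccccatgTttgtgatgggtgtg
Gm13394: agggtggagccaaaCgggtcatcatctcc
Gapdh at that site: agggtggagccaaaAgggtcatcatctcc
Gm15459: ggtaaccgcaccacAccaagctatgttgc
Hspa8 at that site: ggtaaccgcaccacGccaagctatgttgc

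Further sequences carry results on single loci. Gm28006, a 122-base non-coding transcript (chr19:5844916-5845037, minus strand, mm10), lies inside the long non-coding RNA Neat1, at bases 442 to 563 of its 20771, and is printed whole because it drew more reads than Neat1 itself. The 250 bases before the RefSeq start (GRCm38.p6) are printed for 3 intronless genes that were far higher in replicate 2: Hspa1a (chr17:34972157-34972406, minus strand), its neighbour Hspa1b (chr17:34959239-34959488, minus strand) and Otud1 (chr2:19657481-19657730, plus strand). Capitals in the promoters mark matches, on either strand, to the heat-shock element core GAANNTTC, to CCAAT and to the GC box GGGCGG.
Gm28006: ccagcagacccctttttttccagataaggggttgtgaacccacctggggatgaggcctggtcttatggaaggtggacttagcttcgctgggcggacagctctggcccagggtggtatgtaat
Hspa1a promoter: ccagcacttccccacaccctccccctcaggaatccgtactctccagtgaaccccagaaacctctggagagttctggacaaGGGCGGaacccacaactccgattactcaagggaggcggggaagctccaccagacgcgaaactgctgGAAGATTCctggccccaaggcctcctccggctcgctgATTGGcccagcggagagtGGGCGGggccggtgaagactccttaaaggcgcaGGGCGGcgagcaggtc
Hspa1b promoter: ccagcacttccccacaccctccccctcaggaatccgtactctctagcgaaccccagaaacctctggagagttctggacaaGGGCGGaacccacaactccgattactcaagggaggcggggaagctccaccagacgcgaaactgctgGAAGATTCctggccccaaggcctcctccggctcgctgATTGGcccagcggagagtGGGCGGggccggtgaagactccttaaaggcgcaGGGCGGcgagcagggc
Otud1 promoter: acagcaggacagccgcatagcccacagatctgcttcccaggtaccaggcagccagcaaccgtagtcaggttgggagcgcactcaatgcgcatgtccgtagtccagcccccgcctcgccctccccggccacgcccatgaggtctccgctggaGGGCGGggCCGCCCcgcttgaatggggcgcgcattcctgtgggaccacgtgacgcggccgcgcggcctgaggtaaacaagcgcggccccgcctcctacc
The Hspa1a and Hspa1b windows differ at 3 of 250 bases, and both hold 1 heat-shock element core, 1 CCAAT and 3 GC boxes. The Otud1 window holds 2 GC boxes and neither of the other motifs. Of all 32851 RefSeq promoters of this length, 6.69% hold the heat-shock element core, 33.8% CCAAT and 32.7% the GC box. Among the 87 promoters of intronless coding genes with at least 10 reads the shares were 9.20%, 39.1% and 54.0%.

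Pseudogenes and intronless coding genes held most of the single-exon reads. Known single-exon transcripts took 22821 reads in replicate 1 and 16115 in replicate 2, or 1.44% ± 0.0979 of all reads (SD, n = 2). The 454 pseudogenes took 52.7% of these reads in replicate 1 and 46.3% in replicate 2, a mean of 49.5% ± 4.53. The 264 coding transcripts of genes without introns took 31.8% and 36.5%, a mean of 34.1% ± 3.31. Of the annotated transcripts of each class, 19.3% of the intronless coding ones had reads but 4.14% of the pseudogenes. Coding transcripts of genes that also have spliced transcripts numbered 82 and took 6.49% ± 0.326. The 213 non-coding transcripts of coding genes, 204 of them annotated as retained introns, took 2.10% ± 0.277. Long non-coding RNAs (160 transcripts) took 4.33% ± 0.463, small RNA genes (108) took 2.47% ± 1.04, and TEC loci (111), which the annotation marks as awaiting experimental evidence, took 0.989% ± 0.321.

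**Figure D1:**
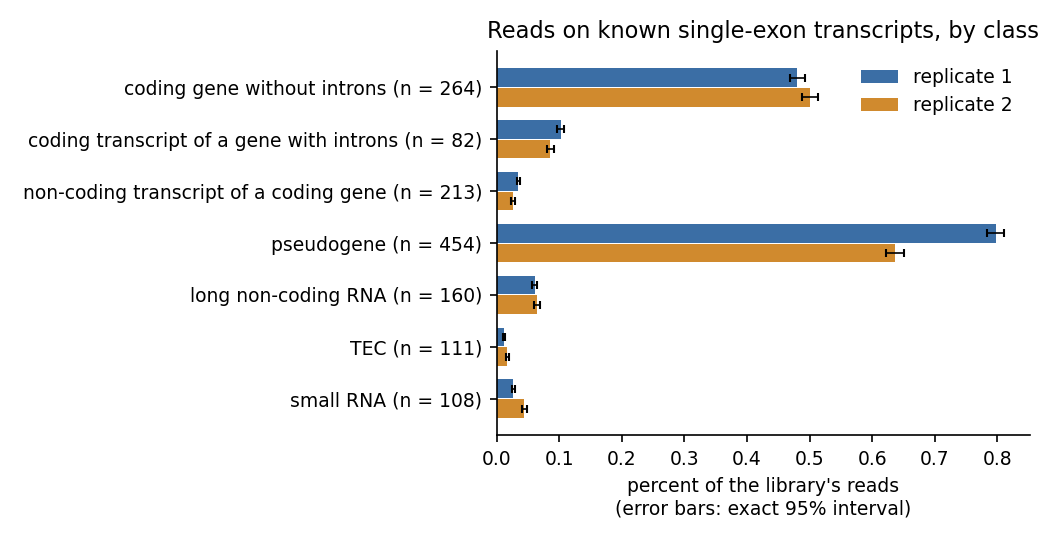
Percent of each library's reads (horizontal axis) on known single-exon transcripts, by class (vertical axis, with the number of transcripts), for replicate 1 and replicate 2, with exact Clopper-Pearson 95% intervals that cover counting error only. Pseudogenes took 0.797% of the reads in replicate 1 and 0.636% in replicate 2, more than any other class plotted, and intronless coding genes took 0.480% and 0.501%.

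The reads were concentrated on few loci. The 10 most read transcripts held 32.4% of the single-exon reads and the 100 most read held 76.1%, while 545 transcripts had 1 read. Reads were found in both libraries for 680 of the transcripts. Of those with 1 read in replicate 1, 31.9% also had a read in replicate 2, against 46.4% of known transcripts of 2 or more exons. All 172 transcripts with 20 or more reads in replicate 1 were seen in replicate 2. No other gene overlapped 51.4% of the transcripts, while 29.9% lay over a gene of the other strand and 10.5% in an intron of a gene of the same strand. The counts of overlapping loci are uncertain where a read could belong to either.

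Whether a pseudogene had reads went with how closely it matched its parent. A copy is here a single-exon transcript that aligns over at least 80% of its length at 95% identity or more to a spliced coding transcript of another gene, or to a coding gene of the mitochondrial genome. Among annotated single-exon pseudogenes whose nearest such gene had 20 reads or more per library, 64 of 100 identical ones had reads. At 99 to under 100% identity 136 of 281 (48.4%) had reads, at 98 to under 99% 51 of 273 (18.7%), and at 95 to under 98% 38 of 827 (4.59%). Below that the shares were 23 of 1251 (1.84%) at 90 to under 95% and 11 of 1291 (0.852%) under 90%. In all, 420 of the 1392 transcripts were copies, and they held 62.6% of the single-exon reads in replicate 1 and 52.0% in replicate 2 (57.3% ± 7.47). Of the pseudogenes with reads, 364 of 454 were copies, and these held 99.1% of the pseudogene reads. The 90 other pseudogenes held 78 and 96 reads. Counts of copies are uncertain as counts of the locus they name, because how the alignment assigned a read between identical places is not given in the sources used here.

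**Figure D2:**
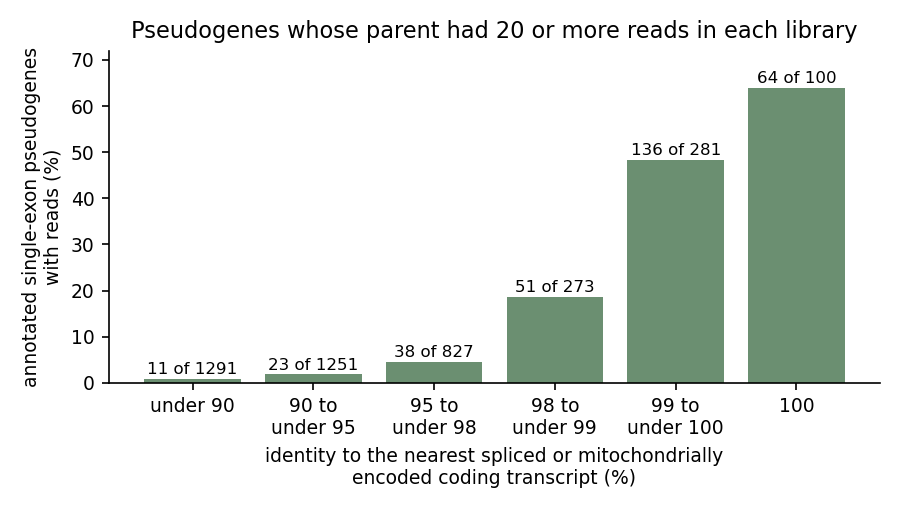
Percent of annotated single-exon pseudogenes with at least 1 read over both libraries (vertical axis) by identity to the nearest spliced or mitochondrially encoded coding transcript (horizontal axis, percent), for parents that had 20 reads or more per library; the numbers over the bars are pseudogenes with reads of all in the bin. The share with reads is 64.0% among identical pseudogenes and 0.852% among those under 90%.

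Gapdh was the extreme case. Gapdh itself had only 40 and 23 reads in the libraries (replicate 1 first, here and below), while 16 of its 70 annotated single-exon copies had 4438 and 1914 reads. The copies thus held 99.1% and 98.8% of the reads of gene and copies. Of the reads assigned to Gapdh, 20 and 6 were on its known transcripts and the rest on unannotated or incomplete models.

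Within the Gapdh copies 4 loci took most reads. Gm12671, on chromosome 4, had 1409 and 785 reads (801 CPM ± 187, SD, n = 2). Gm5559 on chromosome 5 had 976 and 468, and Gm7336 on chromosome 7 had 635 and 377. These kept their order in both libraries and differed by less than 2-fold between them. Gm12033 on chromosome 11 had 1180 and 142 reads, and its share of the reads of gene and copies was 26.4% and 7.33%. Its ratio, always replicate 2 relative to the other library and on the log2(CPM + 1) scale, was -2.68 (Fisher's exact test, adjusted p = 4.47e-149). Gm13394, with 86 and 107 reads, went from 1.92% to 5.52% of the family. Gm10359, also identical to Gapdh, had 42 and 10 reads, far below Gm12671 although both equal the parent.

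**Figure D3:**
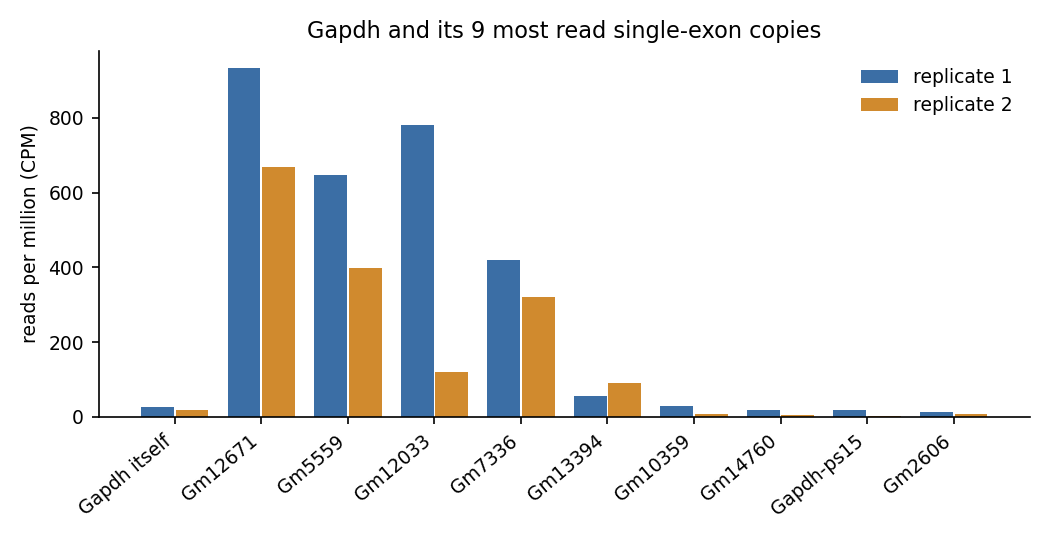
Reads per 1000000 (vertical axis) of Gapdh over all its read classes and of its 9 most read single-exon copies (horizontal axis), for replicate 1 and replicate 2; there is 1 value per library and no error bar. Gapdh itself is far below Gm12671, Gm5559 and Gm7336 in both libraries, and Gm12033 has 782 CPM in replicate 1 and 121 in replicate 2.

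Other abundant housekeeping messages were shared with copies to a lesser degree. There were 284 spliced or mitochondrially encoded genes with a copy with reads, 70 of them ribosomal protein genes. For the 237 that had 20 reads or more per library on gene and copies, the median share on copies was 4.52% in replicate 1 and 3.95% in replicate 2. The share passed 10% in both libraries for 74 genes and 50% for 16. It differed by at most 10 points between the libraries for 226 of the 237, with a median difference of 1.60 points. Copies held 88.6% and 93.0% of the reads for Rpl21, 85.6% and 86.4% for Rpl35a and 60.1% and 64.7% for Rps2, all ribosomal proteins. For Ftl1, the ferritin light chain that stores iron, they held 64.3% and 62.8%. Cox7c, a subunit of cytochrome c oxidase, had 30.9% and 32.4% on copies, nearly all on Gm12338 (410 and 215 reads), a 192-base transcript identical to it. Mpc1-ps, a copy of a subunit of the mitochondrial pyruvate carrier, had 269 and 204 reads, or 43.7% and 45.8% of its family.

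Hspa8 was an exception to the equal shares. Gm15459, its copy on chromosome 5, had 566 and 1371 reads, a log2 ratio of 1.64 (Fisher's exact test, adjusted p = 4.31e-125). Hspa8 itself had 1758 and 1629 reads, a log2 ratio of 0.25 once scaled to library size. The share on copies was 24.4% in replicate 1 and 45.7% in replicate 2. The Amd1 family showed the other pattern. Amd2, an intronless gene for S-adenosylmethionine decarboxylase, an enzyme of polyamine synthesis, is 99.56% identical to a transcript of Amd1 over 99.5% of its length. Amd2 had 1301 and 393 reads and Amd1 1215 and 343, so that both were lower in replicate 2 and the share on copies was 53.0% and 54.0%.

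A block of nuclear copies of mitochondrial genes on chromosome 1 also had reads. Gm10925, identical over its own length to mt-Atp6 (a subunit of ATP synthase), had 173 and 119 reads, against 149 and 151 assigned to mt-Atp6. Gm28437, likewise identical to mt-Co3, had 105 and 133 reads (mt-Co3: 116 and 117), and Gm28661, likewise identical to mt-Co2, had 83 and 93 (mt-Co2: 63 and 93). These are subunits of cytochrome c oxidase. Gm29216, a partial copy of mt-Co1, had 102 and 148 reads against 1006 and 1181 for mt-Co1 itself. The 3 identical copies, Gm10925, Gm28437 and Gm28661, held between 44.1% and 56.8% of the reads of the pair in each library.

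Among the intronless coding genes, 233 of 264 transcripts were no copy, and these held 5350 and 5093 reads. Transcription factors were among the most read. Cebpb, a leucine-zipper factor of stress and metabolic responses, had 679 and 300 reads (353 CPM ± 137). Jund, an AP-1 subunit, had 180 and 251 (167 ± 67.0), Mafa 190 and 96 (104 ± 31.2) and Jun 60 and 112 (67.6 ± 39.4). Fem1a, a substrate receptor of a ubiquitin ligase, had 403 and 326 (272 ± 7.68). Sephs2, which makes the selenium donor for selenoproteins, had 205 and 157 (135 ± 1.41). The RNA-binding protein Pcbp1 had 153 and 145 (112 ± 15.7), and the Wnt receptor Fzd9 had 87 and 203 (115 ± 81.6). The centromere protein Cenpb, the linker histone H1f0 and Tspyl1 lay at 88.4, 72.2 and 134 CPM. Fem1a, Sephs2 and H1f0 were close to equal in the libraries, while Jund, Jun and Fzd9 had more CPM in replicate 2 and Cebpb and Mafa fewer. Lrrc30, a leucine-rich repeat protein, had 209 and 102 reads.

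Gene families with single-exon transcripts differed in how many members had reads. Each count takes genes of any class with an annotated single-exon transcript, and not only intronless coding genes. Of 69 genes named as replication-dependent histones 15 had reads, led by Hist2h2aa2 (54 and 31) and Hist1h1c (51 and 29). Hist2h2aa2 and Hist2h2aa1 are identical over the compared length, and 16 of the 264 intronless coding transcripts were near-identical to another single-exon transcript by the same rule as for copies. Of 37 G protein-coupled receptor genes with a single-exon transcript 10 had reads. Among kelch and BTB-domain genes 7 of 13 had reads, led by Klhl9 (44 and 68) and Kbtbd13 (29 and 25), a gene known from nemaline myopathy. Of 37 other transcription factor genes (Sox, Fox, Pou, basic helix-loop-helix and others) 7 had reads, and of 34 protocadherin genes 7, with 6 and 8 reads in all. Of 1605 olfactory, vomeronasal and trace amine receptor genes 1 had a read. Of the 17 type I interferon genes 0 had reads; a count of 0 allows up to 3 reads per library, or 1.99 and 2.56 CPM.

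Reads of intronless genes were nearly all on the annotated transcript. In 114 intronless genes that had 20 reads or more per library the median share of reads on known transcripts was 100% in both libraries, and 82.5% of the genes in replicate 1 and 83.3% in replicate 2 had no other reads. Of the 114 genes 53 were coding, and of these 77.4% and 79.2% had no other reads. In 3920 genes with only spliced transcripts the median was 81.0% and 83.0%. Most classes of incomplete or unannotated models are defined by splice sites, which intronless genes lack in the annotation. The contrast with spliced genes is therefore in part fixed by how models are classed. Exceptions were the microRNA gene Mir133a-2, where none of 25 and 26 reads was on the annotated transcript, and BC023105, with 3.70% and 6.25%.

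Among single-exon transcripts of genes that also have spliced forms, non-coding ones of coding genes were in general a small part of their gene. In genes with 20 reads or more per library 135 single-exon transcripts were tested. Their median share of the gene's reads was 2.00% in replicate 1 and 0.752% in replicate 2, and 8 passed 50% in both. Of the 135, 115 were non-coding transcripts of coding genes, 112 of them retained introns. Their medians were 1.82% and 0.435%, and 0 passed 50% in both. The 17 coding transcripts had a median of 20.0% in replicate 1 and a lower one in replicate 2. Of these 17, 6 passed 50% in both. Smim10l1 had 347 of 353 and 196 of 199 reads on its single-exon transcript, and Cebpd, a relative of Cebpb, 105 of 106 and 22 of 22. Kcnj11, the pore subunit of the ATP-sensitive potassium channel, had 93.3% and 87.0% on the single-exon transcript Kcnj11-205. Maf-202 had 67 of 123 and 14 of 35 reads of Maf, a leucine-zipper factor. The 2 retained-intron transcripts read most had 30.8% and 20.2% for Ss18l2-207 and 15.8% and 14.5% for Pgp-202. None of the 135 shares differed between the libraries (transcript set against the remaining reads of its gene in a two-sided Fisher's exact test, threshold 0.05 after Benjamini-Hochberg adjustment), and 6 had an unadjusted p below 0.05. Of all known transcripts tested in the same way 1.20% did.

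Few non-coding single-exon transcripts were abundant. Gm28006 had 255 and 333 reads (226 CPM ± 81.2), while Neat1-201, the 20771-base transcript of nuclear paraspeckles around it, had 39 and 70 (42.8 ± 23.9). A second small transcript inside Neat1, Gm27533, had 8 and 8. In all, 43 of the 108 small RNA transcripts with reads (39.8%) lay inside an exon of another gene of the same strand, so that their reads could be pieces of the longer RNA or of the small one, which cannot be told apart from counts. The long non-coding RNA 2900097C17Rik had 140 and 215 reads on a 339-base transcript and 105 and 70 on a 4915-base one. Malat1-201, the single-exon form of an abundant nuclear RNA, had 31 and 5. Gm42418 and AY036118, which overlap each other on opposite strands on chromosome 17, had 86 and 29 and 58 and 23 reads. Both also overlap the gene CT010467.1, and AY036118 lies inside an exon of it on the same strand. Which of these loci the reads came from was not tested.

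Between the libraries the single-exon transcripts differed in both directions. A call needed a 2-fold difference and, in a two-sided Fisher's exact test, a p under 0.05 after Benjamini-Hochberg adjustment over all 8260 known transcripts that had 10 reads or more in sum. Of the 352 single-exon transcripts tested, 23 (6.53%) were higher in replicate 2 and 26 (7.39%) lower, with a median log2 ratio of -0.24. Over all known transcripts 7.55% were higher and 2.00% lower, with a median of 0.17. Over all lengths, the share lower among the single-exon transcripts was thus above the background and the share higher near it. Copies, of spliced or mitochondrially encoded genes, had 5 higher and 17 lower of 152 (median -0.45), and the other single-exon transcripts 18 higher and 9 lower of 200 (median -0.03). Intronless coding genes had 10 higher and 5 lower of 132, and pseudogenes 6 higher and 15 lower of 130. The split depended on scaling: 46.9% of the calls were higher with total reads, 30.2% with TMM (19 higher, 44 lower) and 16.4% with DESeq2 size factors (11 and 56), which shifted all log2 ratios by -0.19 and -0.36. Over all known transcripts the calls were then 4.79% higher and 3.81% lower with TMM, and 3.20% and 6.14% with DESeq2 size factors.

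Length moved with these differences. Among spliced known transcripts the median log2 ratio was -0.67 up to 500 nt, -0.51 from 500 to 1000 nt, -0.11 from 1000 to 2000, 0.17 from 2000 to 3000, 0.50 from 3000 to 5000 and 0.86 above 5000 nt. The single-exon transcripts had medians of -0.48, -0.42, -0.24, -0.03, 0.31 and 0.18 in the same bins. Up to 500 nt, 9.33% of single-exon and 16.7% of spliced transcripts were lower, and from 500 to 1000 nt 7.04% and 8.05%. In the longer bins the shares lower were 6.90% and 2.18%, 3.85% and 0.777%, 7.55% and 0.215%, and 14.3% (2 of 14) and 0.117%. The shares higher were 1.33% and 0% up to 500 nt, and 2.82% and 2.01% from 500 to 1000 nt. Single-exon transcripts were above spliced ones from 1000 to 2000 nt (9.20% and 2.34% higher) and from 2000 to 3000 (15.4% and 4.45%). They were below spliced ones from 3000 to 5000 nt (2 of 53 and 234 of 2330 higher) and above 5000 (14.3% and 25.7%). Pseudogenes were short, with a median of 535 nt, against 2098 nt for intronless coding transcripts. After the log2 ratios were centred on the median of their length bin, 24 of the 352 single-exon transcripts were higher and 20 lower, with a median of -0.04, while over all known transcripts 4.37% were higher and 1.39% lower. The part of length in each call was not tested further.

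**Figure D4:**
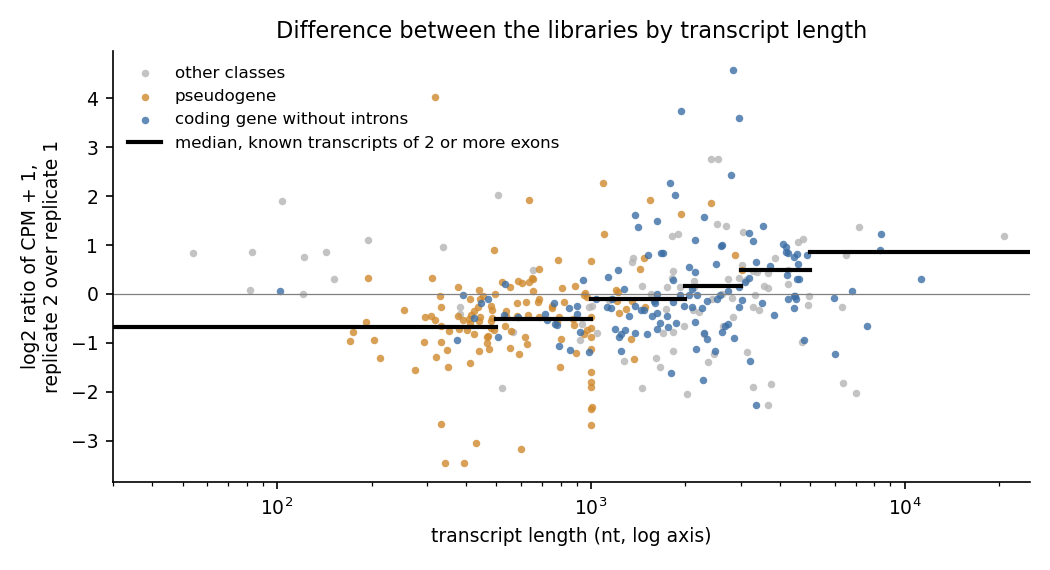
Difference in log2(CPM + 1), replicate 2 minus replicate 1 (vertical axis), against transcript length in nt (horizontal log axis) for the 352 single-exon transcripts with at least 10 reads, by class, with the median of known transcripts of 2 or more exons in each length bin as black bars. The bars run from -0.67 in the shortest bin to 0.86 in the longest, and most pseudogenes lie at the short end below 0.

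Among the intronless coding genes tested, Otud1, Klhl34, Hspa1a and Hspa1b had the highest ratios. Otud1, a deubiquitinase, had 33 and 636 reads, all on its known transcript, a log2 ratio of 4.57 (Fisher's exact test, adjusted p = 9.89e-179). Klhl34, a kelch protein, had 2 and 35 (3.73). Of the 4 heat-shock chaperone genes with single-exon transcripts 3 were higher, against 7.55% of all known transcripts: Hspa1a, with 18 and 182 reads (3.59), Hspa1b, with 34 and 149 (2.44), and Hspa2, whose gene also has spliced transcripts, with 11 and 25 (1.43; no call with DESeq2 size factors, 1.09, or with the deeper library thinned, 1.36). The fourth, Hspb3, had 39 and 19 and no call. Hspa1a and Hspa1b align at 99.23% identity over 74.0% of Hspa1a, so that the split of reads between them is uncertain.

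Genes of the immediate-early and stress list, which holds transcription factors and other genes such as Otud1 and the small GTPase gene Rhob, differed in both directions. Of 13 tested, 3 were higher and 3 lower, against 7.55% and 2.00% of all known transcripts. Jun (60 and 112 reads, 1.24), Junb (20 and 37, 1.19) and Otud1, which stands in the same list, were higher, and Jun and Junb had no call with DESeq2 size factors (0.89 and 0.85), nor Jun after centring on length (0.75). Cebpd (105 and 22, -1.84) and Maf (67 and 14, -1.81) were among the lower ones. Cebpb was at -0.81, which did not reach 2-fold, and passed it with TMM scaling and, at -1.17, with DESeq2 size factors.

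Other called genes had diverse roles. Fzd9 (1.57) and Cldn5, a tight-junction protein of endothelium (17 and 36 reads, 1.37; no call with DESeq2 size factors, 1.03), were higher. The other endothelial markers also had more CPM in replicate 2: Pecam1 had 7.95 and 16.2, Cdh5 7.95 and 12.8 and Kdr 5.96 and 26.4. With Cldn5 itself the 4 markers summed to 33.1 and 86.1 CPM, and none was at 0. Their part in the result was not tested. Lower were Kcnj11-205 (139 and 47 reads, -1.18), Cited4, a transcriptional co-regulator (74 and 25, -1.17), Fibin (21 and 4, -1.76; no call without a read minimum or, at -1.64, with the deeper library thinned), Ss18l2-207 (-1.38) and Malat1-201 (-2.03). Neat1-201 was at 1.18, with no call with TMM (0.99) or DESeq2 size factors (0.82), with the deeper library thinned (0.94) or after centring on length (0.32).

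Smaller gene groups gave few tested members, and their counts stand beside 7.55% higher and 2.00% lower over all known transcripts. Of 8 replacement and linker histone genes 4 had reads, and of 3 tested 0 had a call. Of 10 potassium channel and gap junction genes 4 had reads, and 1 of 3 tested, Kcnj11, was lower in replicate 2. Of 7 ubiquitin and deubiquitinase genes 5 had reads, and 1 of 2 tested, Otud1, was higher. Among 12 retrotransposon-derived genes 5 had reads, led by Rtl8b (44 and 18) and Rtl8a (35 and 16), which are 99.58% alike, and of 3 tested 0 had a call. Of 10 genes in a list of imprinted retrogenes, host genes and others, not all of them imprinted, 5 had reads and 0 of 2 tested had a call. Of 19 abundant non-coding RNA genes 6 had reads, and of 4 tested 1 (Neat1) was higher and 1 (Malat1) lower. Reads fell on 2 of 6 small GTPase genes and on 1 of 3 phosphatase regulator genes, with no call.

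Of the 130 pseudogenes tested between the libraries 129 were copies, so that those called were nearly all bound to be copies. Of the 6 higher ones, Gm15459 had most reads. The others included Vcp-rs, a copy of the segregase gene Vcp (10 and 31 reads, 1.85), and Gm10108, a copy of cytochrome c with 0 and 18 reads, at least 7.72-fold higher against a floor of 3 reads in replicate 1. Lower ones included the Gapdh copies Gm12033, Gm10359 (-1.60), Gm14760 (26 and 5, -1.79) and Gapdh-ps15 on the Y chromosome (26 and 3, -2.36), the Rpl5 copy Gm15500 (276 and 92, -1.21; -0.73 and no call after centring on length) and the Amd1 copy Amd-ps3 (70 and 10, -2.31). Gm6969 and Llph-ps2 each had 15 and 0 reads, at least 3.89-fold lower. Of 295 genes named as ribosomal protein pseudogenes 60 had reads, 59 of them copies, though some, such as Rpl10-ps3, are annotated as coding. Of 31 tested 0 were higher and 3 lower, with a median of -0.51, beside 7.55% and 2.00% of all known transcripts. Of spliced known transcripts up to 500 nt, 0 of 114 were higher and 16.7% lower, with a median of -0.67. Some of the genes tested are longer, such as Rps2-ps13 with 882 nt. From 500 to 1000 nt, 2.01% of spliced known transcripts were higher and 8.05% lower, with a median of -0.51. Over all 1112 genes with pseudogene names in that style 109 had reads, and of 49 transcripts tested 0 were higher and 6 lower. Some of these genes, such as Ftl1-ps1, are likewise annotated as coding.

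**Figure D5:**
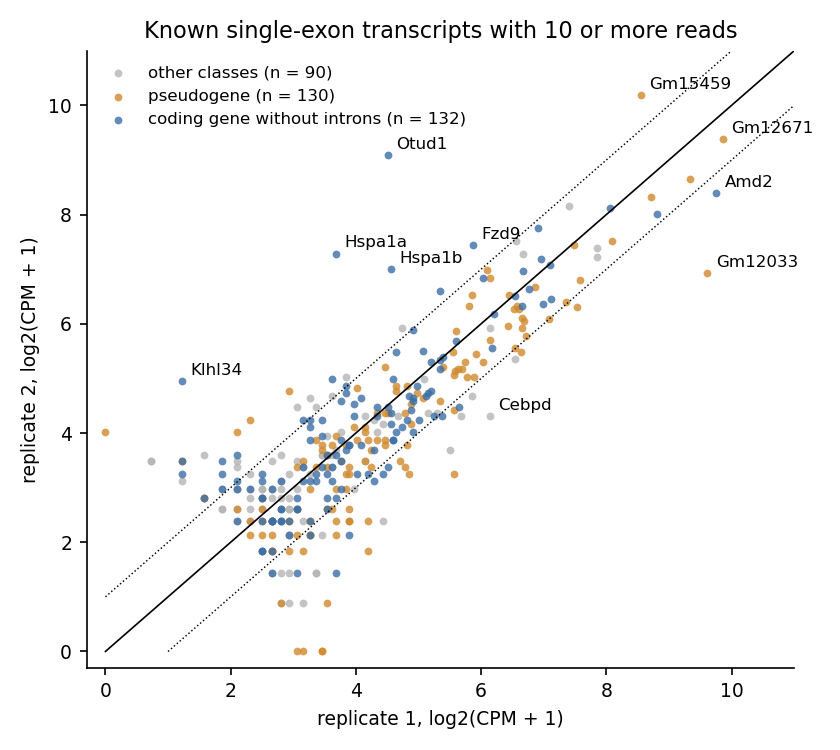
Log2(CPM + 1) in replicate 2 (vertical axis) against replicate 1 (horizontal axis) for the 352 single-exon transcripts with at least 10 reads over both libraries, by class; the line marks equality and the dotted lines 2-fold differences. Otud1, Hspa1a, Hspa1b and Klhl34 lie far above the line, and Gm12033 lies farthest below it among the labelled transcripts.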

How the data were processed

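Long-read RNA sequencing of 2 gastrocnemius libraries was analysed. Each deposited table holds raw counts for 1 library, by transcript model, and per the file headers also lengths and exon numbers. The authors counted from filtered mm10 alignments using GENCODE M21, per the README files, and TALON named the models, per the annotations' source field. Not given in the sources used here are the aligner, versions and the treatment of reads that match several places. Models without reads are not listed, so a missing transcript was taken as 0 reads.

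Reads per transcript were divided by all reads in the table and given per 1000000 (CPM). Shares carry exact 95% Clopper-Pearson intervals, and the floor for 0 is 3 reads per library. Intervals and floors cover counting error only. Known transcripts with 10 reads or more in sum were compared by two-sided Fisher's exact tests with Benjamini-Hochberg adjustment over all of them, and called at adjusted p below 0.05 and 2-fold on log2(CPM + 1). Single-exon transcripts were aligned to spliced and mitochondrially encoded coding transcripts of GENCODE M21 with BLAST+ 2.17.0 (E-value at most 1e-10), without pairs of the same or overlapping genes. Coding genes without introns are those whose every annotated transcript has 1 exon. Promoters are from RefSeq (GRCm38.p6). Scaling factors for alternatives came from edgeR 4.0.16 (TMM) and DESeq2 1.42.0 in R 4.3.3, and Python 3.11.15 (scipy 1.17.1) was used for the rest.

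The transcripts and gene lists were chosen with earlier results of these data known. Named are the 20 most read intronless coding transcripts, the 10 most read pseudogenes, non-coding transcripts and transcripts of genes with introns, the 10 highest and 10 lowest called ratios where the mean reached 10 CPM, and members of the fixed gene lists with at least 10 reads. Copies and their parents, and other loci named for an extreme value, were chosen after their values were seen. Single results of some list members and 1 sequence are not reported here, while list counts include them.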

Additional observations from a re-analysis of the deposited data

How the results depend on the processing

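Calls between the libraries moved with scaling and with the fold minimum. Lower calls numbered 44 with TMM scaling, and with DESeq2 size factors 11 single-exon transcripts were higher and 56 lower, against 23 and 26. With a 4-fold minimum 11 were higher and 10 lower, beside 2.26% and 0.387% of all known transcripts. With no fold minimum 33 were higher and 48 lower of 352, beside 12.1% and 5.70%. Counting all reads of the gene gave 40 higher and 31 lower of 544 genes tested. Over all 9032 genes so tested 8.24% were higher and 2.04% lower. Among coding genes without introns 10 were higher and 5 lower, and leaving out copies, an alternative chosen after seeing the data, left 9 lower. Of the 49 calls, 45 were kept with TMM, 37 with DESeq2 size factors, 39 after centring on length, 39 with the deeper library thinned, 43 with no read minimum, 37 with 20 reads, 46 with a pseudocount of 5 CPM and 21 at 4-fold. No called ratio reversed in sign under the alternatives run. With known reads as the denominator the mean share of single-exon transcripts was 2.43%, and 520 transcripts had at least 5 reads. Leaving out 1 library gave 1000 to 1072 transcripts with reads, 1.37% to 1.51% of all reads and 52.0% to 62.6% of the single-exon reads on copies; the calls cannot be made without both libraries. The share on copies was 56.6% at 98% identity over 90% of the transcript. No paired analysis was possible because there was 1 group. With 545 transcripts at 1 read, absence at this depth does not show absence of the RNA.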

Other observations

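The 3′ ends of the annotated transcripts were searched for the poly(A) signals AATAAA and ATTAAA in the last 50 bases. Among intronless coding transcripts 187 of 264 with reads held one, against 387 of 1089 annotated ones without reads. For long non-coding RNAs the values were 105 of 160 and 506 of 1271, and for coding transcripts of genes with introns 52 of 82 and 162 of 1351. The values were 18 of 454 and 388 of 10512 for pseudogenes, and small RNA genes had 2 of 108 and 195 of 5973. A match is a description of the letters and not a used site. A model that stops where the parent's coding part ends, as Gm12671 does, holds no untranslated end to search. How many models are of this kind was not counted.

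Replication-dependent histone messages normally end in a stem-loop and carry no poly(A) tail. The 14 coding histone transcripts with reads had a median annotated length of 1134 nt, against 485 nt for the 53 without reads. These are lengths of the annotated models, whose completeness was not tested. AATAAA stood in the last 50 bases of 5 of the 14 and of 8 of the 53. A match to the stem-loop pattern was held by 11 of the 14 and by 35 of the 53. In Hist1h1c (51 and 29 reads) the match lay 840 bases before the annotated end, and in Hist3h2a (41 and 21) 1643 bases before it. In Hist2h2aa2 (54 and 31 reads) it lay 35 bases before the end.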
